A study of Mus musculus with 2 samples.

Results

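The regions described here are stretches of 3000 to 5000 bp in which the highest point of histone H4 signal, the summit, lay close to 1 end of the region and not near its middle. They come from a single list of regions where chromatin immunoprecipitation with sequencing (ChIP-seq) gave more histone H4 tags in SAHA-treated than in DMSO-treated MC3T3 sc4 cells, a mouse osteoblast line from calvaria. A region was taken when it lay on an autosome, was 3000 to 5000 bp long, and had its summit in the first or last 15% of its length (summit divided by length below 0.15 or above 0.85). The rule found 1254 such edge-summit regions among 6682 autosomal regions of that length (18.8%, 95% Wilson interval 17.8 to 19.7%) and among 61400 regions in all. The set they are compared with is the 1707 centre-summit regions of the same length range, whose summit divided by length was 0.4 to 0.6.

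SAHA (suberoylanilide hydroxamic acid), a histone deacetylase inhibitor, was added at 20 µM for the SAHA library, and its solvent alone for the DMSO library. In both, the cells grew in osteogenic medium with ascorbic acid and beta glycerol phosphate, treatment lasted 2 hours on day 4, and the agent stayed in place during the collagenase digest that followed. The list holds no expression values, so the osteoblast label was not checked against marker genes. The antibody is labelled histone H4, and the design text describes a map of acetylated H4 lysines. There was 1 library per condition, so the spread between cultures is unknown, and every value below describes these 2 libraries only. After the authors' limit on duplicates, 123676661 SAHA tags and 76214516 DMSO tags remained. That was 97.4% of the SAHA tags and 65.6% of the DMSO tags. The part of this unequal loss in the results was not tested.

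Histone deacetylases remove acetyl groups from lysines in the tails of histones, and inhibitors such as SAHA block that removal. Acetylated H4 tails are typical of open chromatin at promoters and enhancers, where the signal often lies on both flanks of a stretch poor in nucleosomes and can spread over a wider domain. A peak caller lists such a domain as several regions where the tag density between them drops below its limit.

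Position of the summit, length and tag counts all come from the same SAHA over DMSO comparison that chose the regions. The regions were thus selected on measured values, their length and summit position, and all values below are descriptions without a test. Intervals, at 95%, cover counting error over regions or tags only, and neighbouring regions are not independent. Those of shares are Wilson intervals, and those of medians come from binomial order statistics.

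The summit lay at the low-coordinate end in 648 edge-summit regions (51.7%, interval 48.9 to 54.4%) and at the high-coordinate end in 606 (48.3%). The summit was not at the very end. Its median distance from the nearer end was 407 bp (quartiles 358 and 480 bp, range 136 to 747 bp), against 1685 bp in centre-summit regions. In 899 of the 1254 edge-summit regions (71.7%) the summit lay at least 300 and under 500 bp inside the end, and in 110 (8.77%) it lay closer.

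The summit positions were not spread evenly, and edge-summit regions formed a crowd at each end, set off from the middle by a dip. Among all 6682 regions of the length range, counted in steps of 100 bp from the nearer end, 475 had the summit in the step from 300 bp and 449 in that from 400 bp. There were 299 in the step from 600 bp, again 433 in that from 1200 bp and 481 in that from 1400 bp, so the crowd near the ends was no higher than the numbers near the middle. Regions of 2000 bp and more, but under 3000 bp, showed the same dip, with 1203 of 8234 in the step from 300 bp, 734 in that from 600 bp and 877 in that from 900 bp. In 3193 regions over 5000 and up to 8000 bp the counts were low and showed no such crowd, with 60 in the step from 300 bp, 88 in that from 500 bp and 59 in that from 600 bp. These distances were looked at after the data were seen, and the authors' caller used a band width of 300 bp and a fragment size of 141 bp. The part of these settings in the crowding was not tested.

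**Figure D1:**
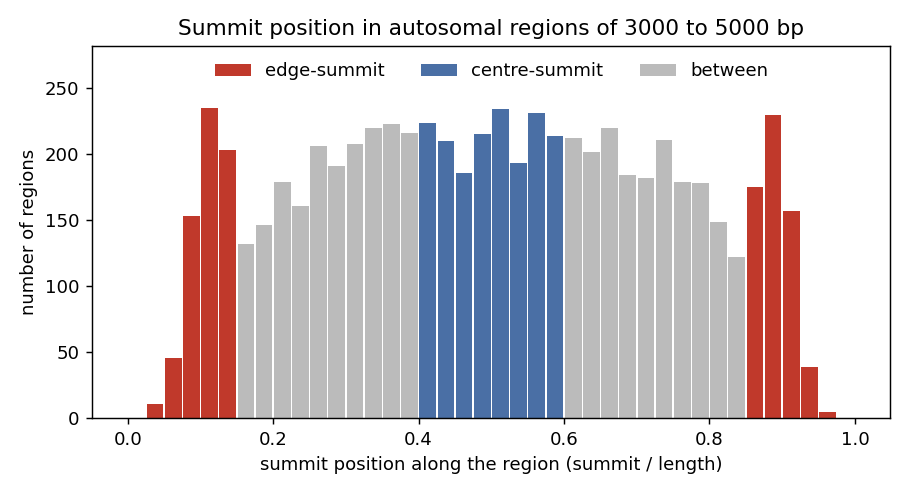
Number of autosomal regions of 3000 to 5000 bp (y axis) by summit position as a fraction of region length (x axis, 40 bins). Red bars are the 1254 edge-summit regions, blue bars the 1707 centre-summit regions and grey bars the regions between; the red bar beside each limit stands above the grey bar next to it.

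At each limit of the rule, regions on either side of it are given here as a description. The edge-summit region nearest the low limit lay at chr17:25816940-25819962 and had its summit 453 bp inside its 3023 bp, with 586 SAHA tags and a summit fold of 2.61. The nearest region left out, chr19:38088543-38093034, had its summit 675 bp inside its 4492 bp, with 1785 tags and a fold of 3.95. At the high limit, the nearest member was chr6:6194838-6199012, with 1250 tags and a fold of 5.47. The nearest region left out there was chr7:19764480-19768257, with 601 tags and a fold of 3.64. The shortest member, of 3000 bp, held 531 tags, and the longest edge region left out below that limit, of 2999 bp, held 436. The longest member, of 5000 bp, held 1421 tags, and the shortest edge region above the limit, of 5002 bp, held 1227. All positions are in build mm9.

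Edge-summit regions held slightly fewer SAHA tags for their length than centre-summit regions. They had a median of 778 SAHA tags (quartiles 653 and 956, range 419 to 1814), against 831 (quartiles 679 and 1033, range 439 to 2469) in centre-summit regions. The median length was 3776 bp in the edge-summit set and 3777 bp in the centre-summit set. Per kb, the median was 207.0 SAHA tags (interval 204.0 to 209.7) in edge-summit regions and 218.5 (interval 215.6 to 220.7) in centre-summit regions, where the genome average is 66.1 tags per kb. The difference was -11.4 tags per kb (edge-summit minus centre-summit). Most of the 2 distributions overlapped, with quartiles of 181.6 and 236.2 tags per kb in edge-summit regions against 190.7 and 255.1 in centre-summit regions. The difference was -5.82 tags per kb with lengths of 2000 to 6000 bp in both sets.

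The difference in density was found along the genome and along the length range. The edge-summit median was the lower in 17 of 19 autosomes; the exceptions were chromosome 3, with 206.5 against 202.2 tags per kb, and chromosome 8, with 207.3 against 206.5. In regions of at least 3000 and under 3500 bp the medians were 194.0 tags per kb in edge-summit and 203.7 in centre-summit regions. In regions of 4500 to 5000 bp they were 220.8 and 238.1. The plot of density against summit position showed a shallow slope, with 204.1 tags per kb where the summit lay in the outer 10%, 208.2 at 10 to 15%, 212.7 at 15 to 20% and 219.6 at 40 to 45%.

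The fold at the summit was close in the 2 sets. This fold, the authors' value for the highest SAHA point over the local DMSO background, had a median of 4.22 (interval 4.13 to 4.32) in edge-summit regions, against 4.07 (interval 4.00 to 4.15) in centre-summit regions. A fold of at least 5 was reached by 365 edge-summit regions (29.1%) and by 480 centre-summit regions (28.1%). The background was 27.9% over all 6682 regions of this length and 19.0% over all 61400 listed regions, so the edge-summit share was close to that of its length range. A fold of at least 10 was reached by 6 edge-summit and 7 centre-summit regions, against a background of 0.449% at this length and 0.241% over the whole list. The authors' score, 10 times the −log10 of the p-value, had a median of 447.1 in edge-summit regions against 391.5 in centre-summit regions. The FDR column was nowhere below 58.23% in either set, with a median of 87.2% in edge-summit and 80.8% in centre-summit regions. It stood at 100% in 489 edge-summit regions (39.0%) and 640 centre-summit regions (37.5%). At that value the file implies at least as many regions with the libraries exchanged, if the column is read by the caller's usual definition.

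The recovered local DMSO background was lower in edge-summit regions. The background was recovered from each region's tags and score as a multiple of the genome average. It is the highest of several windows the caller is known to use, so it is no DMSO count of the region and is approximate. It could be recovered for 1250 of 1254 edge-summit regions and 1699 of 1707 centre-summit regions; the others had scores at or above 3000. Its median was 1.76 times the genome average (interval 1.71 to 1.82) in edge-summit regions and 1.94 times (interval 1.90 to 1.98) in centre-summit regions. It was under 1.5 times in 387 edge-summit regions (31.0%) and in 386 centre-summit regions (22.7%). The edge-summit median was the lower in 18 of 19 autosomes, the exception being chromosome 7 with 1.64 against 1.54 times. The part of the summit position in this background was not tested, nor in the ratio and summit height derived from it.

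The SAHA tags of the whole region divided by that background gave a median of 1.74 (interval 1.71 to 1.77) in edge-summit regions and 1.65 (interval 1.63 to 1.68) in centre-summit regions. A value of 2 or more was found in 388 edge-summit regions (31.0%) and 474 centre-summit regions (27.9%). The edge-summit median was the higher in 15 of 19 autosomes. Sorted by the background, the direction turned in 2 of 4 classes. Under 1.5 times the genome average the ratio was 2.24 in edge-summit and 2.36 in centre-summit regions, at 1.5 to 2 times 1.75 and 1.74, at 2 to 3 times 1.45 and 1.43, and at 3 times and over 1.23 and 1.27.

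In the same classes of recovered background, the difference in density was smaller in the middle of the range. At 1.5 to 2 times the genome average, edge-summit regions had 202.0 SAHA tags per kb and centre-summit regions 203.6. At 2 to 3 times, they had 227.4 and 228.5. Under 1.5 times, the edge-summit median was 184.2 against 191.8 tags per kb in centre-summit regions, and at 3 times and over, with 63 and 195 regions, it was 289.5 against 299.6. The background is itself computed from the tags, so these strata are not independent of the density.

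The prominence of the summit within its region was alike in the 2 sets. The height of the summit, recovered from the fold and the background, was a median of 71.0 overlapping SAHA fragments in edge-summit regions and 75.3 in centre-summit regions. Set against the mean height over the same region, it was 2.40 times in both sets, with intervals of 2.37 to 2.42 in edge-summit regions and 2.38 to 2.43 in centre-summit regions.

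**Figure D2:**
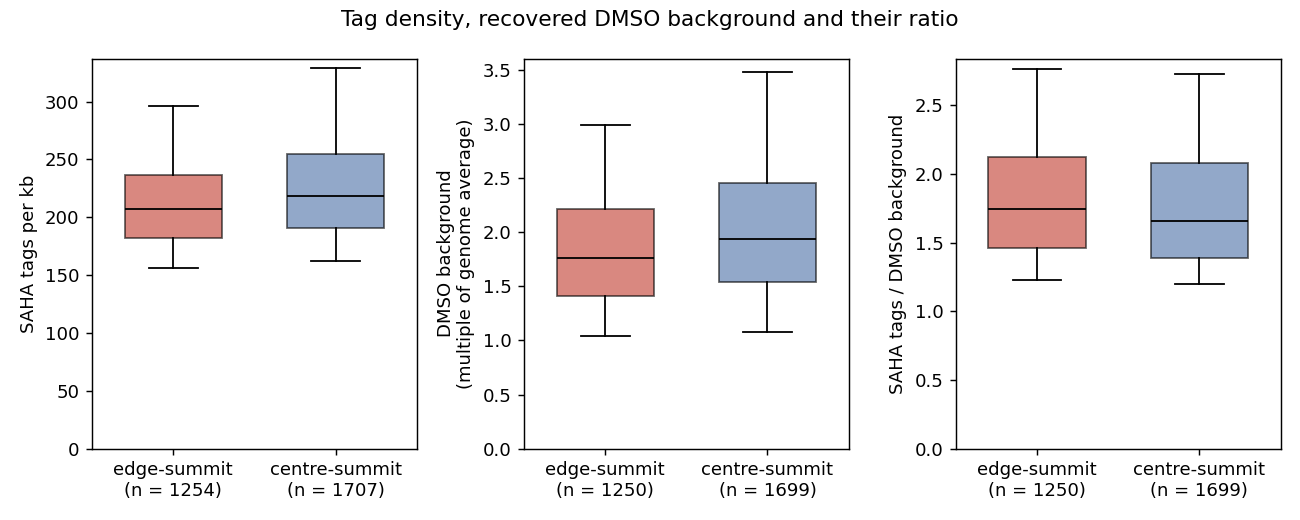
SAHA tags per kb, recovered DMSO background as a multiple of the genome average, and SAHA tags divided by that background, in edge-summit and centre-summit regions. Boxes show quartiles and median, whiskers the 5th and 95th percentiles; the edge-summit medians are 207.0, 1.76 and 1.74, against 218.5, 1.94 and 1.65 in centre-summit regions, with wide overlap in each panel.

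The space beside edge-summit regions was not symmetric, and the next listed region was closer on the summit side. The median gap was 1308 bp (interval 1003 to 1628 bp) on the summit side and 2774 bp (interval 2225 to 3328 bp) on the other side. In centre-summit regions, with the end nearer the summit taken as the summit side, the gaps were 2684.5 bp (interval 2221 to 3524 bp) and 2832 bp (interval 2200 to 3455 bp). The edge-summit regions thus differed from the centre-summit regions in the gap beside the summit, while the gaps on the other side had overlapping intervals. A shorter summit-side gap was not particular to edge-summit regions. With the summit at 0.15 to 0.2 of the length from the nearer end, the median summit-side gap was 1279 bp. The other-side gap there was 2204 bp. At 0.3 to 0.35 of the length these gaps were 1866 and 3712.5 bp, but at 0.4 to 0.45 they were 2628 and 2428 bp. Over all regions of this length range outside the edge-summit set they were 2326 and 3143 bp. With neighbours and members limited to a score of at least 100, the edge-summit gaps were 3374 bp on the summit side and 5979 bp on the other side. With neighbours joined across gaps of up to 100 bp, they were 2412 and 3809.5 bp. The gaps also varied with length. Edge-summit regions of 4000 to 5000 bp had 957.5 bp on the summit side and 1619.5 bp on the other side, and those of at least 4000 and under 4500 bp had 956 and 1266 bp. On the other side, the edge-summit median was above the centre-summit one in regions of at least 3000 and under 3500 bp (3823 against 2296.5 bp) and below it in those of at least 4000 and under 4500 bp (1266 against 2644 bp).

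The asymmetry was seen among close neighbours. A neighbour lay within 1 kb on the summit side of 591 edge-summit regions (47.1%, interval 44.4 to 49.9%) and on the other side of 470 (37.5%, interval 34.8 to 40.2%). In centre-summit regions these were 667 of 1706 (39.1%, interval 36.8 to 41.4%) and 632 (37.0%, interval 34.8 to 39.4%). Within 100 bp, where adjoining regions all but touch, there were 210 edge-summit regions with a neighbour on the summit side (16.7%) and 153 with one on the other side (12.2%). At 50 kb the shares were close, at 92.1% on the summit side and 93.4% on the other side of edge-summit regions.

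**Figure D3:**
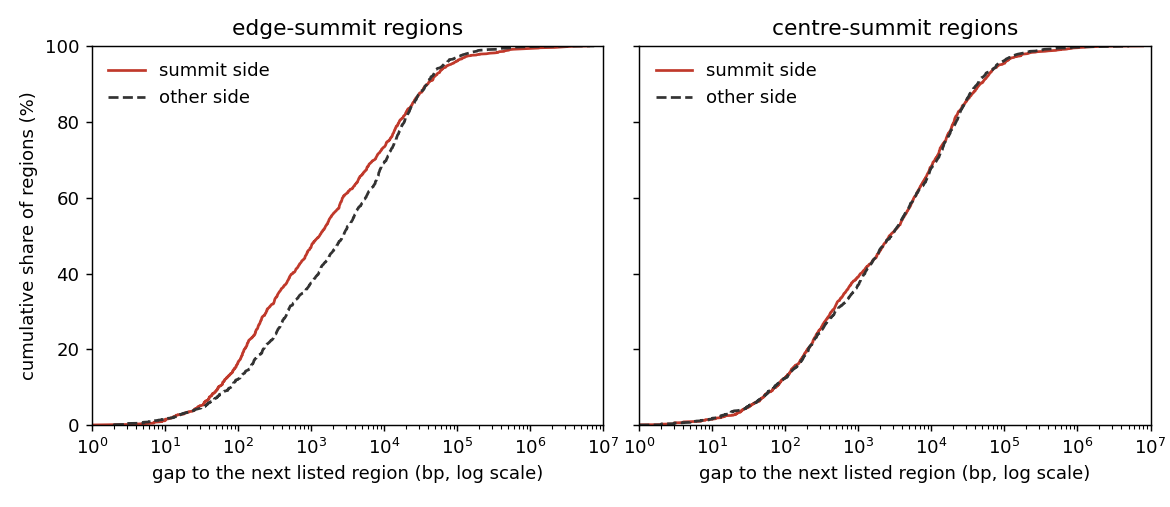
Cumulative share of regions (y axis, percent) by the gap to the next listed region (x axis, bp, log scale), on the summit side (red line) and the other side (dashed line). In edge-summit regions the summit-side line runs above the other from gaps of 50 bp to 10 kb, with 47.1% against 37.5% at 1 kb, and in centre-summit regions the lines nearly coincide, 39.1% against 37.0%.

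Of the edge-summit regions, 267 (21.3%) had a neighbour within 1 kb on both sides and 460 (36.7%) on neither side. A neighbour on the summit side alone was found for 324 (25.8%) and on the other side alone for 203 (16.2%). Among the 527 with a neighbour on exactly 1 side, it was thus on the summit side in 61.5% (interval 57.3 to 65.5%), against 359 of 683 centre-summit regions (52.6%, interval 48.8 to 56.3%). Over all regions of this length outside the edge-summit set it was 1216 of 2173 (56.0%, interval 53.9 to 58.0%). In these 527 regions, which end a run of close regions, the summit pointed into the run more often than out of it. The share was 63.4% with the summit at the low-coordinate end (interval 57.6 to 68.8%) and 59.3% with the summit at the high-coordinate end (interval 53.0 to 65.2%).

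Counted by the nearer neighbour at any distance, the asymmetry was smaller. It was on the summit side in 695 of 1254 edge-summit regions (55.4%, interval 52.7 to 58.2%) and in 867 of 1706 centre-summit regions (50.8%, interval 48.4 to 53.2%). Regions just outside the rule had a like share, 55.7% with the summit at 15 to 20% of the length from the nearer end, 54.7% at 20 to 25% and 53.9% at 25 to 30%, so it is not particular to edge-summit regions. Among edge-summit regions of 4000 to 5000 bp it was 52.8% (interval 48.2 to 57.2%), and this interval includes 50%. Single autosomes varied: the edge-summit share was over 50% in 17 of 19, highest on chromosome 11 at 65.3% of 72 regions, exactly 50% on chromosome 14 and lowest on chromosome 10 at 44.0% of 91. In centre-summit regions it was over 50% in 11 of 19 autosomes.

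The share of regions with a close neighbour beside the summit changed gradually along the range of summit positions. It was 48.7% with the summit in the outer 10%, 46.4% at 10 to 15%, 45.9% at 15 to 20%, 42.8% at 20 to 25%, 42.3% at 25 to 30%, 42.2% at 30 to 35%, 38.6% at 35 to 40%, 39.7% at 40 to 45% and 38.5% from there to the middle. On the other side it stayed between 33.5% and 39.9%. No break stood at the limit of 15%.

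**Figure D4:**
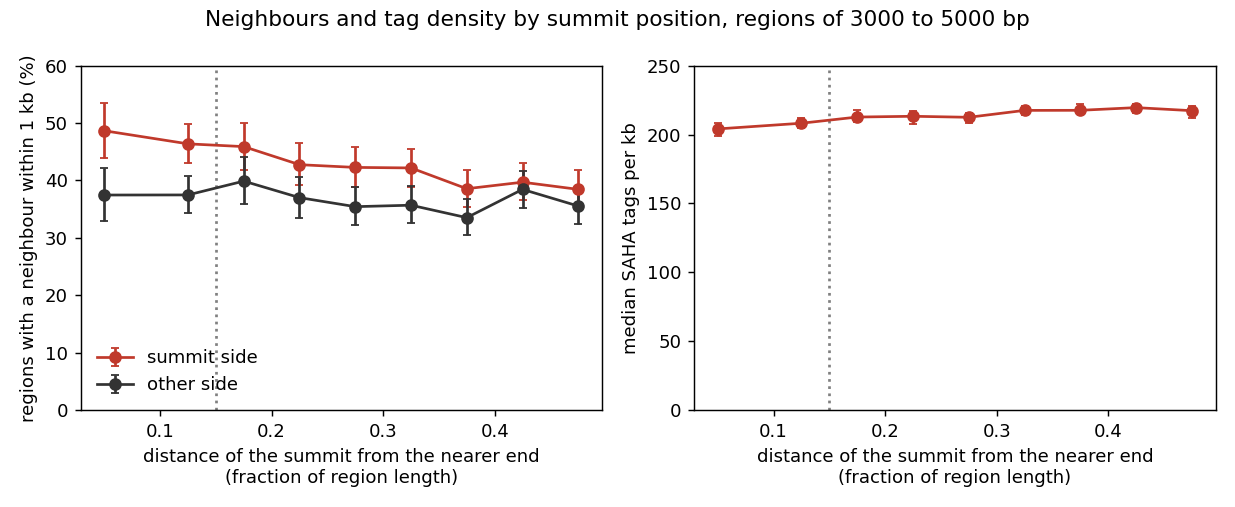
Left, share of regions of 3000 to 5000 bp with a listed neighbour within 1 kb (percent) on the summit side (red) and the other side (black) by the distance of the summit from the nearer end as a fraction of length; right, median SAHA tags per kb on the same axis. Bars are 95% intervals and the dotted line is the limit of 0.15; the summit-side share is 48.7% in the outermost bin and 38.5% in the innermost, and the median density 204.1 and 217.3 tags per kb.

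The neighbour beside the summit was somewhat larger and denser than the one on the other side, but in most pairs less dense than the edge-summit region itself. Within 1 kb, summit-side neighbours had a median length of 1932 bp (interval 1793 to 2115 bp) and a density of 188.2 SAHA tags per kb (interval 181.6 to 196.5). Other-side neighbours had 1622 bp (interval 1477 to 1765 bp) and 176.3 tags per kb (interval 169.4 to 184.2). The summit-side neighbour had the higher density of the pair in 225 of 591 cases (38.1%, interval 34.2 to 42.1%), and the other-side neighbour in 140 of 470 (29.8%, interval 25.8 to 34.1%). Around centre-summit regions these shares were 28.0% on the summit side and 28.0% on the other side. Around all regions of this length outside the edge-summit set they were 30.0% and 25.4%, so a side difference was found there too. Most neighbours were shorter than the members, and density rose with length among the members. The part of length in these densities was not tested. In summit fold the neighbour exceeded the edge-summit region in 40.8% of cases on the summit side and 41.5% on the other side.

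The summits of close neighbours lay in the facing 15% of the neighbour about as seldom around edge-summit as around centre-summit regions. Their own summit lay in the 15% of their length that faced the edge-summit region in 28 of 591 cases on the summit side (4.74%) and 14 of 470 on the other side (2.98%). Around centre-summit regions these shares were 4.05% on the summit side and 3.48% on the other side. In the far 15% it lay in 23 (3.89%) on the summit side and 19 (4.04%) on the other side of edge-summit regions, against 2.70% and 2.06% around centre-summit regions, with overlapping intervals. In a region of the neighbours' median length the outer 15% is under 300 bp, a stretch that held few summits in the lengths examined above. Over the neighbours' whole length, the median summit position from the facing end was 0.447 (interval 0.421 to 0.473) beside the summit of edge-summit regions. It was 0.491 (interval 0.452 to 0.520) on their other side. Around centre-summit regions it was 0.480 on the summit side and 0.483 on the other side, and the intervals overlapped. Only 11 pairs of edge-summit regions adjoined each other within 1 kb, 3 with the summits facing, 3 with the summits on the outer ends and 5 with both summits at the same end.

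Edge-summit regions took part in runs of regions slightly more than centre-summit regions. With regions joined across gaps of up to 10 kb, 153 edge-summit regions (12.2%, interval 10.5 to 14.1%) were in clusters of 20 or more regions, against 163 centre-summit regions (9.55%, interval 8.24 to 11.0%). In clusters of 10 to 19 there were 271 edge-summit regions (21.6%) and 306 centre-summit regions (17.9%). There were 130 edge-summit regions (10.4%) and 224 centre-summit regions (13.1%) with no other region within that distance. Over all regions of this length range the shares in the same order were 10.1%, 18.6% and 13.6%. In each of these classes the intervals of the edge-summit and centre-summit sets overlapped. Among the autosomes, edge-summit regions made up from 15.4% of the regions of this length on chromosome 8 (60 of 389, interval 12.2 to 19.4%) to 22.3% on chromosome 15 (64 of 287, interval 17.9 to 27.5%).

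Density and fold were highest, in both sets, where close neighbours flanked the region. Edge-summit regions with a neighbour within 1 kb on both sides had a median fold of 4.81, SAHA tags 1.93 times the background and a background of 1.60 times the genome average. Those with a neighbour on the summit side alone had a fold of 4.39 and 1.78 times the background, those with one on the other side alone 4.08 and 1.74 times, and those with neither 3.87 and 1.59 times. In centre-summit regions the folds in the same order were 4.68, 4.10, 4.17 and 3.82. The edge-summit density was the lower in each of these 4 classes, with differences of -6.12, -14.0, -9.64 and -13.3 tags per kb (edge-summit minus centre-summit).

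The highest folds among edge-summit regions with the summit at the high-coordinate end included the highest of the whole set. At chr9:43750006-43754946 the fold was 15.94, with 1599 SAHA tags (95% Poisson interval 1522 to 1679) over 4941 bp, or 323.6 per kb. Its summit lay 452 bp from the end, and a region of 1542 bp with a fold of 8.79 began after a gap of 28 bp on that side, while the other side was free for 21.0 kb. At chr7:89541167-89544271 the fold was 11.10, with 681 tags (interval 631 to 734), 3.04 times a background of 1.09 times the genome average. That region belonged to a cluster of 80 regions over 282.3 kb, with gaps of 213 bp on the summit side and 336 bp on the other side. At chr3:37834711-37838545 the fold was 10.10, with 856 tags, 3.08 times the background, in a cluster of 24 regions. Each of these 3 regions had the nearer neighbour on the summit side, and in each the FDR column stood at 100%.

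With the summit at the low-coordinate end the highest folds were 12.12, 11.80 and 11.24, each with 100% in the FDR column. The first, at chr13:51689806-51694509, held 1142 SAHA tags (interval 1077 to 1210), 3.67 times a background equal to the genome average, with gaps of 5016 bp on the summit side and 16.2 kb on the other. The second, at chr3:38041799-38046499, held 1423 tags, with 6629 bp free on the summit side and 1768 bp on the other. The next, at chr19:27371360-27375677, held 1299 tags and had its summit 311 bp from the end, with a neighbour of fold 7.63 after 186 bp on that side. The background of the last 2 of these was not recovered. For comparison, the highest folds among centre-summit regions were 11.47, at chr11:97423416-97426963 with 863 tags, and 11.44, at chr16:10872542-10876504 with 1002 tags. Their tags were 3.68 and 3.32 times the background. In the edge-summit regions of highest fold where it was recovered, the tags were 3.67, 3.04 and 3.08 times the background. For the region of highest fold, chr9:43750006-43754946, the background was not recovered either.

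The densest edge-summit regions did not share a high fold. At chr2:118524610-118527642, 1238 SAHA tags (interval 1170 to 1309) made 408.2 per kb, with a fold of 6.05 and 2.76 times the background. It lay between close neighbours, and the one on the summit side, 183 bp away and 5563 bp long, had 389.4 tags per kb and a fold of 13.00. At chr6:51502280-51505434 there were 1214 tags, or 384.8 per kb, but the background was 4.99 times the genome average, the fold 3.03 and the tags 1.17 times the background. This region had no neighbour within 10 kb. At chr5:119164698-119169231 there were 1718 tags, or 378.9 per kb, with a fold of 5.68 and gaps of 44 and 120 bp on the summit side and the other side.

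The least dense edge-summit regions were at chr1:80092144-80095492, chr4:131878482-131881713 and chr6:53306810-53309912. They held 437, 437 and 430 SAHA tags, or 130.5, 135.2 and 138.6 per kb. The first had a fold of 2.68 and 1.36 times its background. The other two had folds of 4.40 and 5.10 at backgrounds near the genome average, and 2.16 and 2.06 times as many tags as the background. Low density thus went with a low fold in the first alone.

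Some edge-summit regions stood at the border of long stretches without a listed region. On the other side, the greatest excess of the gap was at chr7:6135151-6139438, with 7.49 Mb free there against 55.7 kb on the summit side. Next were chr18:44815213-44818231, with 1.65 Mb free on the other side against 759 bp on the summit side, and chr9:89763597-89766941, with 1.33 Mb against 29.2 kb. On the summit side, the greatest excess was at chr8:98322762-98326823, with 6.30 Mb free there against 220 bp on the other side. It was followed by chr14:45623964-45628959, with 3.86 Mb against 51.9 kb, and chr5:9090742-9094094, with 3.41 Mb against 86 bp. Gaps of this size were found on either side of the summit. Stretches where few tags can map were not analysed here.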

How the data were processed

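One region list of 2 libraries was used. The build was mm9 and the tools MACS 1.4.0rc2, BWA 0.5.9, CASAVA 1.7.0 and SAMtools, per the submitters' processing notes. Per the file headers, MACS took SAHA reads as ChIP and DMSO reads as control, kept at most 3 duplicate tags per position, scaled the smaller library to the larger and used a p cutoff of 1e-05. The tag column holds counts of SAHA tags as deposited. The score column as deposited is 10 times the −log10 of a p-value. The fold column as deposited is a ratio, and the FDR column as deposited is a percent.

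Gaps are the bases between neighbouring listed regions on all chromosomes. The local DMSO background was solved from tags and score as the mean at which a Poisson variable exceeds the tag count with the listed p, for scores under 3000. Of 895 edge-summit regions precise enough to test, fold times background gave a summit height within 0.1 of a whole number in 59.9% (interval 56.6 to 63.1%), against 20% by chance. In 1025 centre-summit regions the share was 67.3% (interval 64.4 to 70.1%), so the check held less often in the edge-summit set. The part of this in the differences of recovered background, ratio and summit height was not tested. The solving of the background and the assignment of gaps to sides were run on simulated data. The simulated scores came from the same Poisson formula, so that run cannot show that the deposited scores follow it. The summit height was not simulated. Python 3.11.15, numpy 2.4.6, pandas 2.3.3, scipy 1.17.1 and matplotlib 3.10.9 were used.

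The rule and the comparison set were chosen with earlier results of these data known. Regions named are those of highest fold at each end, highest and lowest density and largest differences between the gaps, plus the 2 centre-summit regions of highest fold and those next to each limit. Genes and sequences at these positions were not analysed here.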

Additional observations from a re-analysis of the deposited data

How the results depend on the processing

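The density difference kept its sign, and the summit-side median gap stayed shorter than the other-side gap, under every alternative run. The share with the nearer neighbour on the summit side stayed within its interval, but its own interval included 50% at lengths of 4000 to 5000 bp (52.8%, 48.2 to 57.2%). The number of edge-summit regions was 411 with the summit in the outer 10%, 2390 at lengths of 2000 to 6000 bp, 783 at 3000 to 4000 bp and 472 at 4000 to 5000 bp, as narrower or wider limits take in fewer or more regions. At 2000 to 6000 bp the density difference was -5.82 tags per kb. The median gaps on the summit side and the other side were 1639 and 3509 bp at 3000 to 4000 bp, 957.5 and 1619.5 bp at 4000 to 5000 bp, 3374 and 5979 bp at a score of at least 100, and 2412 and 3809.5 bp with neighbours joined within 100 bp. Fewer or joined neighbours lengthen gaps by construction; the cause of the change with length was not tested. In all, 13 of the values under alternatives moved beyond the interval or by over 1.5 times in a count, and 27 did not. No paired analysis was possible because each condition had 1 library, and no alternative stands in for replicates.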
